A study of Mus musculus with 12 samples.

Results

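Keratins 7, 8, 18 and 19, the cell surface protein Epcam, the claudins Cldn3, Cldn4, Cldn6 and Cldn7 and the junction scaffold Tjp3 are standard markers of simple epithelium. These 10 genes were taken by symbol, through their Ensembl identifiers, from the 30399 genes of an RNA sequencing table of mouse lung tumors and normal lung, and all 10 were present. The table held 12 samples, 5 of normal lung and 7 of tumor. The study made mouse lung cancer models by CRISPR/Cas9 mutagenesis delivered without a virus. The labels used here give only the tissue, normal lung or tumor. They do not give the genes targeted, the strain, age or sex of the mice, or any treatment of the mice that gave normal lung. The titles of tumors 1 and 7 name the trachea and those of tumors 3 to 6 name the lung, while the title of tumor 2 names no site. Tumors 3 and 4 share the title number 159 and tumors 5, 6 and 7 share 201. The labels do not say that each sample came from a separate animal, so the p-values below measure only the spread between these samples.

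Keratins form the intermediate filaments of epithelial cells, each filament being built from a type I and a type II chain. Krt7 and Krt8 are type II chains and Krt18 and Krt19 are type I chains, and Krt8 with Krt18 is the basic pair of simple epithelia such as the lining of airways and alveoli. Epcam is a transmembrane glycoprotein of the lateral cell surface that binds Cldn7. Claudins are the membrane proteins that form tight junction strands and set what passes between cells, and Tjp3 (ZO-3) is a cytoplasmic scaffold that ties claudins to actin. Pulmonary neuroendocrine cells are themselves epithelial cells of the airway.

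Reads on genes per library numbered 11126432 to 17032234 for normal lung and 13093843 to 24217633 for tumors. Values are normalized counts, that is, reads divided by a size factor for each library. Marker genes differed between the tissue labels: all 9 alveolar type 2 markers were lower in tumors and 13 of 14 neuroendocrine markers were higher (limma, adjusted p under 0.05). Over all tested genes 30.1% were lower and 31.4% higher. The labels do not name a tumor type. Tumor 1 was the only tumor with a clear level of Y-linked genes, with a mean log2 value of 9.14 against 0 to 1.48 in the other tumors, while 4 normal lungs had 9.18 to 9.43 and normal lung 3 had 0. Tumor 7 had the highest summed cardiac and leukocyte markers of the tumors, at 42454 and 9175.

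Of the 10 genes, 7 were lower in tumors and none was higher in limma's test at an adjusted p under 0.05. Over all 23674 genes tested, 30.1% were lower and 31.4% higher. The median log2 fold change of the 10 genes was -2.71, against 0.04 over all tested genes. Those that fell were all 4 keratins, Cldn3, Cldn4 and Cldn7. Epcam, Cldn6 and Tjp3 did not pass. Without tumor 1 limma called 8 of the 10 lower, against 29.6% of all genes tested, and the count was 6 to 8 with each sample left out. Tumor 1 is singled out because it was the highest tumor for 9 of these 10 genes. Leaving it out must lower the tumor means of those genes. Results without tumor 1, here and below, are therefore no separate support. The count was smaller in other fits: 3 of 9 were lower in edgeR (26.3% of all), 2 of 5 with an adjusted p in DESeq2 (24.7%) and 3 of 10 in limma with the mean level of Y-linked genes as covariate (24.3%). The edgeR calls were Krt19, Cldn3 and Cldn4, a share near that of all genes, those of DESeq2 were Krt19 and Cldn4, and those with the covariate were Krt19, Cldn3 and Cldn7. These count tests left out tumor 3. With all 12 samples, a choice made after seeing the data, edgeR called 4 of 9 lower (29.6% of all), Cldn7 being the fourth. DESeq2 called 7 of 10 (26.9%), with Epcam and without Krt7, but in this fit it replaced the counts of tumor 1 as outliers for Krt8, Epcam, Cldn3, Cldn6 and Cldn7. For Krt19, Cldn3 and Cldn4 every tumor lay below every normal lung, that is 3 of 10 genes against 18.4% of all tested genes. None of the 10 had every tumor above every normal lung, against 20.1%. In bulk tissue, fewer cells of a type and less RNA per cell cannot be told apart.

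**Figure D1:**
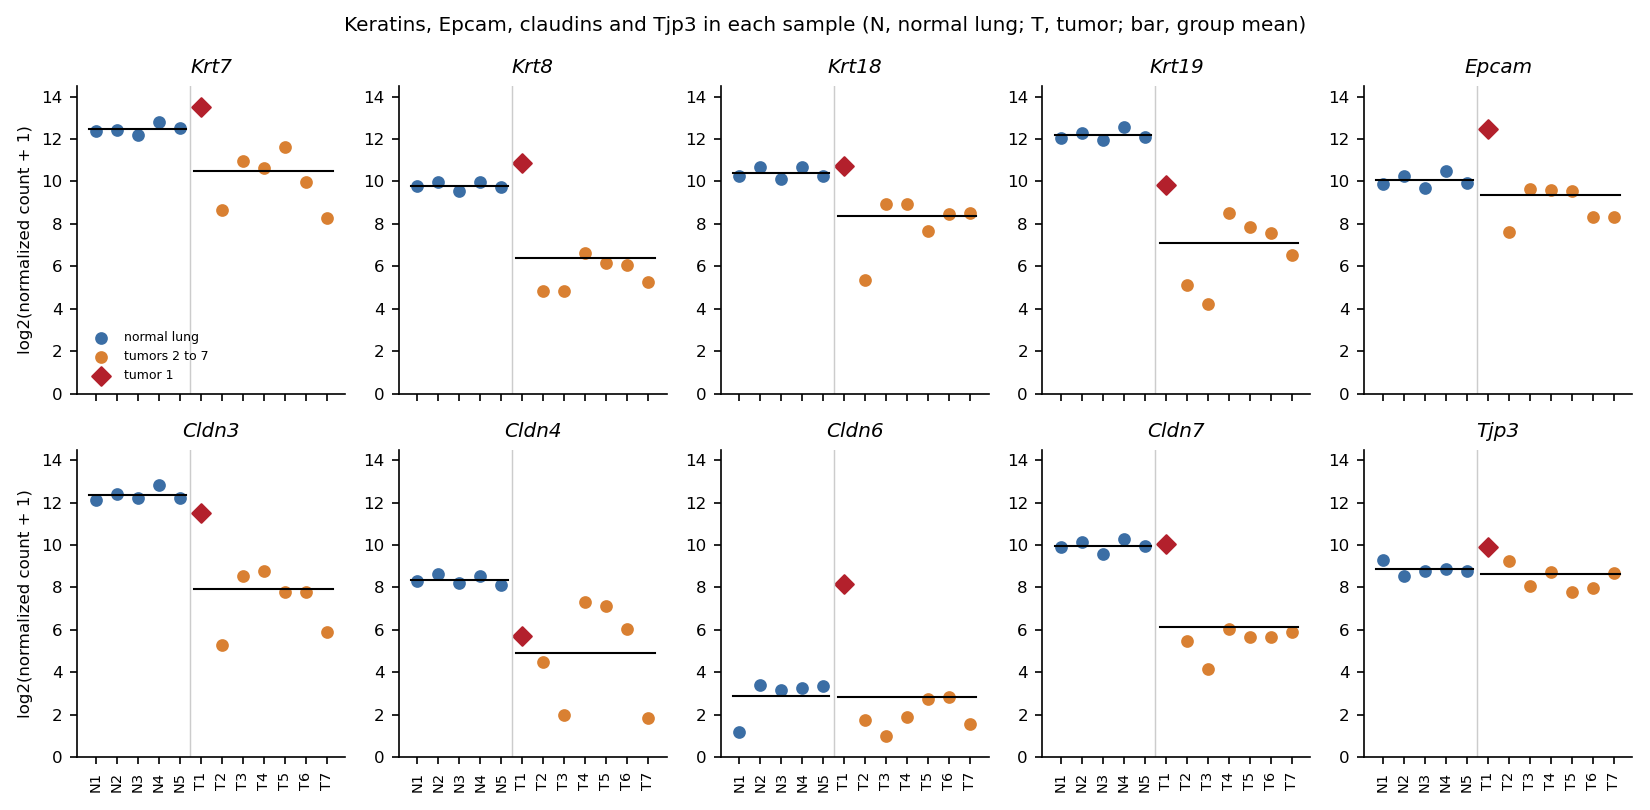
Each panel plots log2(normalized count + 1) of a gene in the 5 normal lungs (blue) and the 7 tumors (orange, with tumor 1 as a red diamond), and the black bars are group means. Normal lungs sit close together except for Cldn6, tumors spread widely, and tumor 1 is the highest tumor for 9 of the 10 genes.

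Promoter sequences are shown for the pairs of genes whose joint or separate movement the results describe: the keratin partners Krt8 and Krt18, Epcam with its binding partner Cldn7, and the neighbours Cldn3 and Cldn4. RefSeq (GRCm38.p6) gave 11 windows of 250 bases before the start for 9 of the 10 genes. Krt19 had no entry. Sequences run 5′ to 3′ on the gene's strand, and capitals mark every match, on either strand, to CAGGTG (an E-box of the kind bound by Snai and Zeb repressors), GGGCGG (a GC box) or TGANTCA (an AP-1 site).
Krt8, chr15:102004343-102004592, minus strand: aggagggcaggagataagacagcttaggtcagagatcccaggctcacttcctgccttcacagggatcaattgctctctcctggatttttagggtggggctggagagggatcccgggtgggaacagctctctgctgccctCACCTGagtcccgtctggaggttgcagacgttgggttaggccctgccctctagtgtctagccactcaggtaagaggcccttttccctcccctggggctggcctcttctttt
Krt18, chr15:102027966-102028215, plus strand: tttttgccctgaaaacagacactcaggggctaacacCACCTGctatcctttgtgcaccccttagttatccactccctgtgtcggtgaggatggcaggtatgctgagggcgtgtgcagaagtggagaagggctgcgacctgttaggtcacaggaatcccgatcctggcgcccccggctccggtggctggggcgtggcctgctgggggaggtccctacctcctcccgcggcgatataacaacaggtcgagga
Epcam, chr17:87635729-87635978, plus strand: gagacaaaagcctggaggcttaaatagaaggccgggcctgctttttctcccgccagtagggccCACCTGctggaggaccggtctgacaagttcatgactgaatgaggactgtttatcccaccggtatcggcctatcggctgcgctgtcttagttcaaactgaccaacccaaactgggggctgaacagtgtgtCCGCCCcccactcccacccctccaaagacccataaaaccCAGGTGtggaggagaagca
Cldn7, chr11:69965171-69965420, plus strand: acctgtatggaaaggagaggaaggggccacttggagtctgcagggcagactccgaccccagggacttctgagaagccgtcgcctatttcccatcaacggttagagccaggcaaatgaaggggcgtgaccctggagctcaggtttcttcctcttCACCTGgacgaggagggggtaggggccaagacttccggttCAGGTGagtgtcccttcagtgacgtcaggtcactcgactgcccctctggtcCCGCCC
Cldn3, chr5:134985964-134986213, plus strand: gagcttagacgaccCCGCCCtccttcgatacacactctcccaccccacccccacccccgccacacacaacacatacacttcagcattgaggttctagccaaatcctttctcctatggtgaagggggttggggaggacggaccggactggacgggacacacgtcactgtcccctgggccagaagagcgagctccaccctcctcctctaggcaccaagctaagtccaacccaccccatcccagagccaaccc
Cldn4, chr5:134946935-134947184, minus strand: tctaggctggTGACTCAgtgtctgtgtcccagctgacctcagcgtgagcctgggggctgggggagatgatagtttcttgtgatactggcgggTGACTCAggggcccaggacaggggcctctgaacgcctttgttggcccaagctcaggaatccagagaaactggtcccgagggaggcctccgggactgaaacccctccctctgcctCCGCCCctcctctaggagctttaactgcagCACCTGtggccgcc
The E-box CAGGTG, or CACCTG on the other strand, was in 9 of the 11 windows, against 17.2% of all 32851 windows of this length. It was in all the genes with a window except Cldn3, with 2 matches each in Epcam and in the Cldn7 window shown, and it was in the windows of Tjp3 and Cldn6, which did not pass the test, as well as in those of genes that fell. The GC box was in 6 of 11 windows, against 32.7% of all, and the AP-1 letters only in Cldn4, with 2 matches, against 6.75% of all windows. The grainyhead-type letters AACCNGTT and the TATA letters TATAAA were in none of the 11, against 1.79% and 12.4% of all. The shares over all windows were not matched for base composition. The median GC content of all windows was 52.4%, while the windows shown ran from 56.4% in Epcam to 62% in Cldn4. Below that median were a Tjp3 window at 43.2% and the Cldn7 window not shown, at 51.2%. Whether GC content accounts for the differences in share was not tested. These matches describe letters in a window, not binding.

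Type II keratins were lower in all tumors but tumor 1. Krt7, which marks glandular and airway epithelium, had normalized counts of 5321, 5471, 4614, 7244 and 5909 in normal lungs 1 to 5. In tumors 1 to 7 it had 11708, 398, 2014, 1567, 3164, 999 and 309. Tumor 1 thus lay above every normal lung and tumors 2 to 7 lay below all of them. Krt7 fell by 1.95 on the log2 scale (SE 0.71, limma adjusted p = 0.0284). This call was lost without normal lung 4 (adjusted p = 0.0607), normal lung 5 (0.051) or tumor 2 (0.0531), and in each edgeR and DESeq2 fit (0.235 to 0.38). In limma it was also lost under quantile normalization (adjusted p = 0.0546), with same-numbered tumors averaged (0.0655) or correlated (0.0569), and with the Y-linked covariate (0.511).

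Krt8, the obligate type II partner of Krt18 in simple epithelium, had 869, 997, 738, 1003 and 853 in the normal lungs. In tumors 1 to 7 it had 1852, 27.4, 27.8, 97.0, 70.4, 66.0 and 37.8. Tumor 1 had 19.1 times the level of the next tumor and 2.13 times the median normal lung, while the other 6 tumors all stayed below 100. Krt8 fell by 3.42 on the log2 scale (SE 0.83, limma adjusted p = 0.00284), and by 4.16 without tumor 1 (adjusted p = 3.81e-07).

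Type I keratins separated from each other. Krt18 had 1242, 1617, 1098, 1622 and 1206 in normal lungs and 1713, 39.3, 489.8, 492, 205, 356 and 359.9 in tumors 1 to 7. Tumor 1 again lay above the normal lungs, tumor 2 was far the lowest, and the other 5 tumors kept 205 to 492. Krt18 fell by 2.01 on the log2 scale (SE 0.65, limma adjusted p = 0.0158). Krt19, the smallest type I keratin, which lacks the usual tail, had 4297, 4970.4, 3934, 6091 and 4375 in normal lungs. In tumors 1 to 7 Krt19 had 908, 33.4, 17.8, 369, 231, 189 and 91.6. Here tumor 1 too lay below every normal lung. Krt19 fell by 5.10 on the log2 scale (SE 0.77, limma adjusted p = 7.37e-05), the largest decrease of the 10 genes.

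Sequence copies touch Krt8 and Krt18. In the GENCODE M21 transcripts, the processed pseudogene Krt8-ps matched Krt8 at 98.6% identity over 941 bases, which is 48.1% of the Krt8 transcript. It lies inside Nlrp4e on the same strand of chromosome 7 and is not itself among the listed genes. Nlrp4e had the profile nearest to that of Krt8 of 16517 genes compared, with 859 to 1552 in normal lungs, 2245 in tumor 1 and 41.7 to 102 in tumors 2 to 7. Krt18 has the copy Gm5200 on chromosome 13, with 90.5% identity over 1267 bases, and Gm5200 had the profile nearest to that of Krt18. It had 99.3 to 154 in normal lungs, 160.2 in tumor 1 and 1.19 to 46.6 in tumors 2 to 7. Whether reads of a keratin were counted at its copy was not tested. With each keratin and its neighbour in profile summed, Krt8 fell by 3.40 and Krt18 by 2.04 on the log2 scale.

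Epcam behaved differently between tumor 1 and the others. It had 944, 1203, 830.1, 1436 and 968 in normal lungs and 5610.3, 193, 799, 766, 747, 325 and 318 in tumors 1 to 7. Tumor 1 had 5.80 times the median normal lung, whereas tumors 2 to 7 lay below every normal lung, 3 of them only just below the lowest. Over the 7 tumors its log2 change of -0.69 did not pass (SE 0.63, limma adjusted p = 0.359). Without tumor 1 Epcam fell by 1.21 on the log2 scale (limma adjusted p = 0.0122).

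Cldn3 and Cldn4, adjacent genes that encode receptors of a clostridial enterotoxin as well as junction strands, were both lower in every tumor. Cldn3 had 4469, 5364, 4687, 7374 and 4694 in normal lungs and 2946, 38.1, 366, 439, 217, 217 and 59.6 in tumors 1 to 7. The highest tumor, tumor 1, held 6.71 times the level of the next. Cldn3 fell by 4.41 on the log2 scale (SE 0.81, limma adjusted p = 3.58e-04). Cldn4 had 312, 396, 294, 377 and 278 in normal lungs and 50.6, 21.4, 2.97, 159, 138, 64.0 and 2.56 in tumors 1 to 7. It was the only gene of the 10 whose highest tumor was not tumor 1 but tumor 4, and tumors 3 and 7 rested on 3 and 4 reads. Cldn4 fell by 3.44 on the log2 scale (SE 0.90, limma adjusted p = 0.00480).

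Cldn7, the claudin that binds Epcam and reaches beyond the tight junction along the lateral membrane, had 950.5, 1146, 766, 1233 and 1000.2 in normal lungs. In tumors 1 to 7 it had 1050.3, 44.1, 16.9, 65.6, 50.2, 49.2 and 58.9. Tumor 1 lay within the normal range, and the other 6 tumors lay between 16.9 and 65.6. Cldn7 fell by 3.84 on the log2 scale (SE 0.73, limma adjusted p = 4.89e-04).

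Cldn6, a claudin best known from embryonic epithelium, was close to the detection limit in all samples but tumor 1. It had 1.29, 9.68, 8.08, 8.46 and 9.20 in normal lungs, from 1 to 9 reads, against a floor of 3 reads that equals at most 4.85 normalized counts. Tumor 1 had 282, from 446 reads, and tumors 2 to 7 had 2.38, 0.991, 2.69, 5.66, 6.06 and 1.92. Over all tumors its log2 change came to -0.04 (SE 1.02, limma adjusted p = 0.977). No difference between tumors 2 to 7 and normal lung was detectable at this depth.

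On the log2 scale Tjp3 had the smallest SD of the 10 genes over tumors, at 0.76. It had 627, 368, 439, 464 and 438 in normal lungs and 957, 611, 267, 428, 223, 253 and 403 in tumors 1 to 7. The groups overlapped, with 3 tumors below the lowest normal lung and tumor 1 above the highest. Its log2 change came to -0.22 (SE 0.33, limma adjusted p = 0.588).

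**Figure D2:**
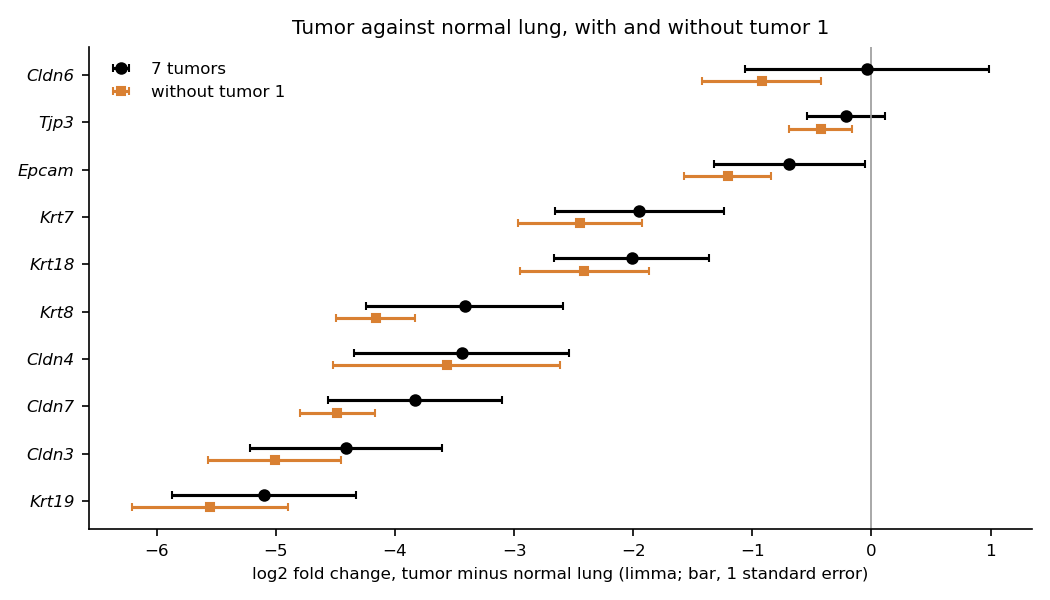
Log2 fold changes of tumor minus normal lung with 1 standard error, over 7 tumors (black circles) and without tumor 1 (orange squares). Krt19 stands at -5.10 and Tjp3 at -0.22 with all tumors, and Epcam moves from -0.69 to -1.21 without tumor 1.

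Ratios of log2(value + 1) within a sample depend little on the scaling between samples except at low values, and 6 of them were put to a two-sided exact permutation test, which can give no p below 0.00253. Krt19 relative to Krt18, both type I chains, had a mean log2 ratio of 1.80 ± 0.11 (SD, n = 5 normal lungs) against -1.28 ± 1.65 (SD, n = 7 tumors). All 7 tumors lay below all normal lungs, and the difference was -3.08 (exact permutation p = 0.00253, adjusted p = 0.0152 over 6 ratios). Tumor 1 was no exception here, at -0.92, and the lowest ratio was -4.70 in tumor 3.

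Krt7 relative to Krt8, both type II chains, moved the other way. Its mean log2 ratio was 2.67 ± 0.16 (SD, n = 5 normal lungs) against 4.14 ± 1.25 (SD, n = 7 tumors), higher by 1.47 (exact permutation p = 0.00758, adjusted p = 0.0227). Tumor 1 lay within the normal range at 2.66, and tumors 2 to 7 lay at 2.997 to 6.13, all above it. Without normal lung 1, 2 or 3 in turn, the adjusted p was 0.0545 each time in the exact permutation test. With same-numbered tumors averaged the difference was 1.24 and did not pass (exact permutation, adjusted p = 0.143).

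For the partner pair Krt8 and Krt18 the log2 ratio varied little over normal lungs, at -0.60 ± 0.10 (SD, n = 5). It spread widely over tumors, at -1.997 ± 1.48 (SD, n = 7). Tumor 1 had 0.11, tumor 2 had -0.51, and tumors 3 to 7 had -4.09 to -1.53. The difference of -1.40 missed the threshold (exact permutation p = 0.0530, adjusted p = 0.106). Without tumor 1 it was -1.75 (exact permutation, adjusted p = 0.0433), and with same-numbered tumors averaged it was -0.90 (adjusted p = 0.552).

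The junction ratios did not pass. Differences of the log2 ratio were 0.58 for Cldn7 to Cldn3 (adjusted p = 0.470), 0.97 for Cldn4 to Cldn3 (0.470) and 0.47 for Tjp3 to Epcam (0.513), each by exact permutation test. For the neighbours Cldn4 and Cldn3 the normal lungs spanned only -4.29 to -3.76, while tumors spanned -6.53 to -0.64. Tumors 2, 4, 5 and 6 lay above the normal range, tumors 1 and 3 lay below it, and tumor 7 lay within it at -4.09. That last value rests on 4 Cldn4 reads, and without the added 1 it is -4.54, below the normal lungs.

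**Figure D3:**
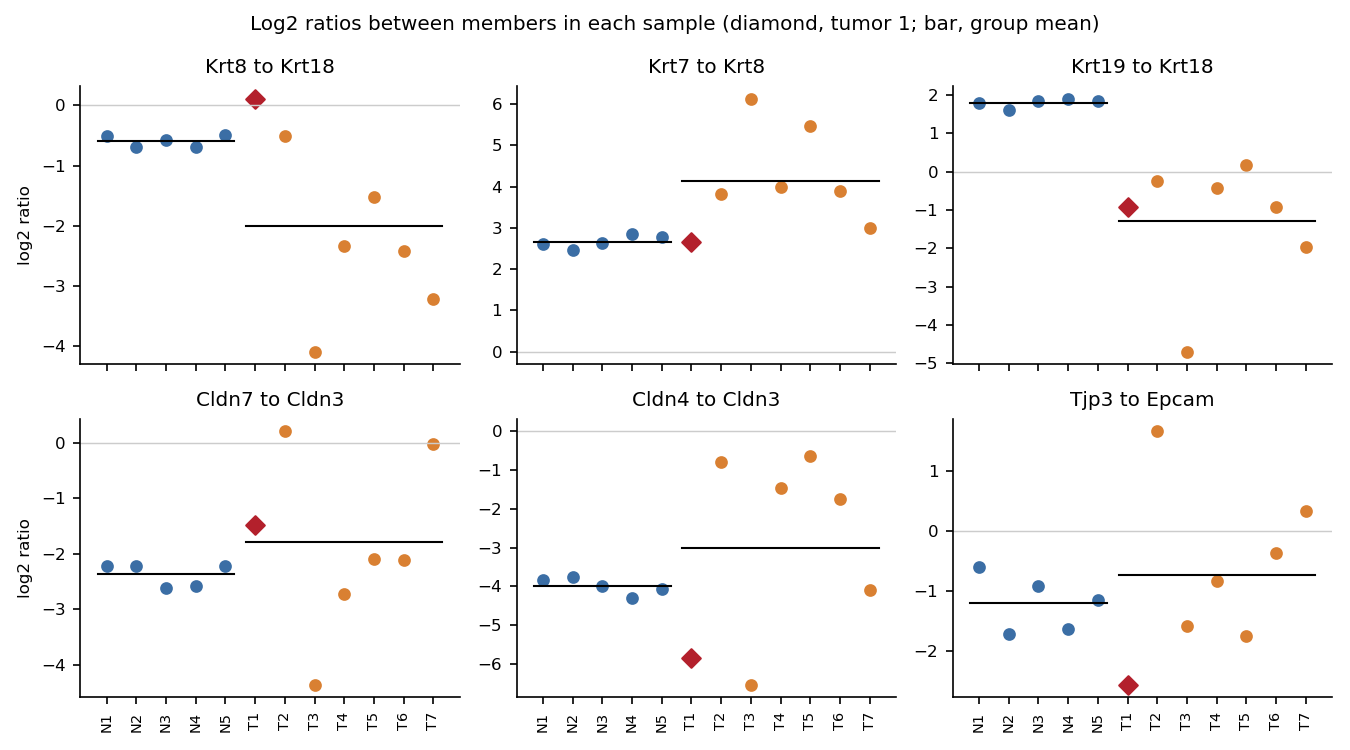
Each panel plots the log2 ratio of a pair of genes in the 5 normal lungs (blue) and 7 tumors (orange, tumor 1 as a red diamond), with group means as bars. Ratios vary less over normal lungs than over tumors, with Tjp3 to Epcam the most variable in normal lung (SD 0.47), and Krt19 to Krt18 is the ratio with no overlap between the groups.

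Dividing by the length of the principal GENCODE M21 transcript allows levels of different genes to be set side by side. Counts at Nlrp4e and Gm5200 were not added to those of Krt8 and Krt18 here. In normal lung the median normalized count per kilobase was 3728 for Cldn3, 2776 for Krt19, 1336 for Krt7, 864 for Krt18, 749 for Cldn7, 475 for Epcam, 444 for Krt8, 172 for Cldn4, 145 for Tjp3 and 5.22 for Cldn6. Ranges of neighbours in this order overlapped except between Krt19 and Krt7, Krt8 and Cldn4, and Tjp3 and Cldn6. In tumors the order of the medians began with Krt7 at 383, Epcam at 366 and Krt18 at 250.5 per kilobase, and Krt19 stood sixth at 120.15. With the length of all annotated exons, 7049 in place of 4094 bases for Krt7, Epcam led at 340.2 and Krt7 was at 222. In normal lung that length put Krt7 at 776, below Krt18 at 864, and Epcam at 441, below Krt8 at 444. Ranges over the 7 tumors overlapped for Krt7, Epcam and Krt18, and the length used changed which of them led, so their order in tumors is not resolved. The order of genes within each sample was not compared.

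Tumor 1 was the highest tumor for 9 of the 10 genes, against 12.9% of all tested genes. It was above every normal lung for Krt7, Krt8, Krt18, Epcam, Cldn6 and Tjp3, within the normal range for Cldn7, and below it for Krt19, Cldn3 and Cldn4. In tumors 2 to 7, 8 of the 10 genes were below every normal lung in all 6, the exceptions being Cldn6 and Tjp3, while 19.5% of all tested genes had that pattern. Tumor 2 was the lowest tumor for Krt8, Krt18, Epcam and Cldn3, tumor 3 for Krt19, Cldn6 and Cldn7, tumor 5 for Tjp3, and tumor 7 for Krt7 and Cldn4. Tumors 3 and 4, which share a title number, differed for Krt19 at 17.8 and 369 and for Cldn4 at 2.97 and 159.

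**Figure D4:**
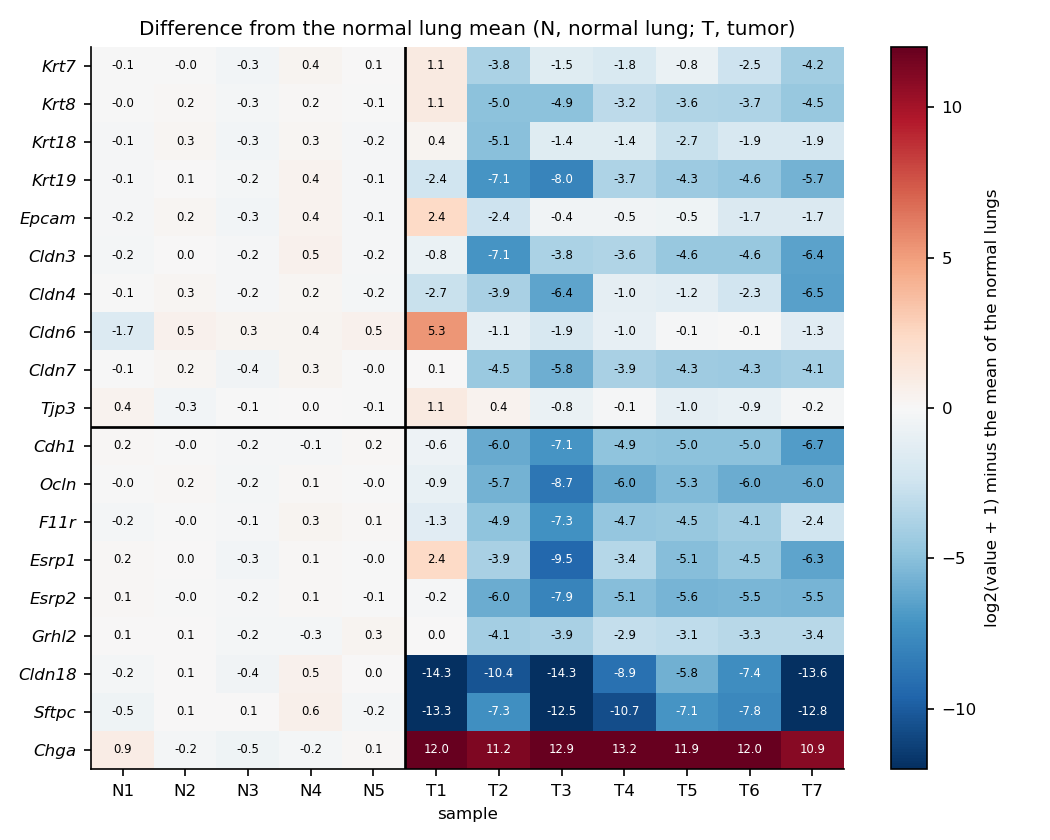
The map gives log2(normalized count + 1) minus the normal lung mean in every sample for the 10 genes (above the line) and 9 other epithelial, alveolar and neuroendocrine genes. Color runs from -12 (blue) to 12 (red), with values beyond that in the end color, and the column of tumor 1 is near 0 or above it for Krt8, Krt18, Epcam, Cldn7, Esrp1 and Grhl2, while Cldn18 and Sftpc are far below 0 there.

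The wider epithelial programme was a list of 29 genes of splicing, transcription, proteolysis and trafficking in epithelial cells, with the claudin Cldn18. Of these, 27 were lower and none was higher (limma), against 30.1% lower and 31.4% higher over all genes. Their median log2 fold change was -3.94. Tumor 1 was the highest tumor for 23 of these 29, against 12.9% of all tested genes. Esrp1, an epithelial splicing regulator, had 3647 in tumor 1 against 552 to 785 in normal lungs and 0 to 66.5 in the other tumors. Elf5, a transcription factor of distal lung epithelium, and Cldn18, the alveolar claudin, had the largest decreases, 7.47 and 10.66 on the log2 scale. Cldn18, which is also counted among the other claudins below, had no read in tumors 1 and 3. Cdh1, the adhesion molecule of epithelial adherens junctions, had 6378 to 8042 in normal lungs, 4858 in tumor 1 and 51.6 to 244 in the others.

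Of the other keratins, 22 were listed and 15 tested: 1 was higher and 3 were lower (limma), both below the shares of 31.4% and 30.1% over all genes. Krt23 and Krt79 fell by 6.49 and 5.78 on the log2 scale. Outside the naming rule and named after their values were seen, Krt78 fell by 2.10 at a low level, and Krt17, a keratin of basal and stressed epithelium, rose by 3.57 with 90.2 and 135 in tumors 3 and 4. Keratins of stratified epithelium that were not called included Krt5, with at most 63.2 in normal lung and 185 in tumor 4. In that tumor Krt8 had 97.0 and Nlrp4e, which holds the Krt8 copy, had 102. Krt13 had at most 5.75 in normal lung and 109.5 in tumor 7, Krt1 at most 32.3 and 88.2, and Krt14 at most 6.46 and 14.4.

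Of the other claudins, 20 were listed and 16 tested, with 9 lower and 3 higher (limma), against 30.1% lower and 31.4% higher over all genes. Cldn5, the endothelial claudin, fell by 7.24 on the log2 scale, from 12476 to 26485 in normal lungs to 23.4 to 339 in tumors. Cldn11 rose by 1.46. Cldn14 and Cldn19, named after their values were seen, rose by 3.72 and 3.05 at levels below 46 in every sample.

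Among 27 further tight junction genes, 16 were lower and 5 higher (limma), against 30.1% lower and 31.4% higher over all genes. The higher ones were thus a smaller share than over all genes. Ocln, a strand protein, fell by 5.505 on the log2 scale with 643 in tumor 1 and 1.98 to 30.7 in the other tumors, and Pard6b, a polarity adaptor, fell by 4.20. The scaffold Tjp1 fell by 1.499 on the log2 scale, and the junction protein Bves and the polarity adaptor Pard6a rose by 3.91 and 1.95. The other 3 that rose, named after their values were seen, were Jam3, Mpdz and Sympk. Of 25 adherens junction and desmosome genes, 24 were tested, and 13 were lower and 7 higher. Over all genes 30.1% were lower and 31.4% higher, so the share of higher ones was near that of all genes. Cdh1 fell by 5.03 and the desmosomal plakophilin Pkp2 fell by 4.39, while the neural catenin Ctnna2 rose by 9.91 and the neural cadherin Cdh2 by 4.11. Vim, the mesenchymal intermediate filament, fell by 2.99 on the log2 scale (limma adjusted p = 2.25e-04), with 10320.1 in tumor 7 and 728 to 2441 in the other tumors.

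Markers of lung epithelium and mesothelium were also lower in tumors as a group. All 7 alveolar type 1 markers, 7 of 8 club and goblet, 7 of 8 ciliated and 7 of 8 mesothelial markers were lower in tumors (limma). Over all tested genes 30.1% were lower. Summed normalized counts of the markers ran from 82837 to 156484 in normal lung and 2195.5 to 4820 in tumors for alveolar type 1 cells. For type 2 cells they ran from 280102 to 428047 in normal lung and 877 to 6631 in tumors. Club and goblet sums were 109081 to 256367 in normal lung, 6481 in tumor 1 and 180.4 to 2711 in the other tumors. Mesothelial sums were 3228 to 4994 in normal lung and 7.93 to 1451 in tumors, with 295 in tumor 1. Ciliated sums were 9939 to 17986 in normal lung, 1773 in tumor 1 and 616 to 1456 in the other tumors. Among the tumors, tumor 1 had the highest club and goblet sum and the highest ciliated sum but the lowest alveolar type 1 sum. Its type 2 sum of 3338 and its mesothelial sum were below those of tumor 7. Of 7 basal and squamous markers tested, only Ngfr was called, as higher, while 31.4% of all tested genes were higher. The part of these cells in the keratin and claudin results was not tested. Endothelial and leukocyte markers, which are not epithelial, were also lower in 10 of 10 and 12 of 12 genes, against 30.1% of all tested genes.

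Profiles most like those of the 10 genes were ranked by the root mean square difference of centred log2 values over the 12 samples. Outside the copies above, the nearest genes were H2-Q2 (0.42) for Krt8, Atp2a3 (0.47) for Krt18, Large2 (0.39) and Misp (0.48) for Epcam, and Pls1 (0.43), Lrrc8e (0.45) and Myo5b (0.45) for Cldn7. Scnn1a (0.60), a subunit of the epithelial sodium channel, was nearest to Cldn3, Arhgef16 (0.57) to Krt7, Lrriq1 (0.59) to Krt19 and Gramd1c (0.29) to Tjp3. Cldn4 had no match as close, the nearest being Wnt7b at 1.06.

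Exons of 4 of the genes overlap a listed gene on the opposite strand: Krt7 with Gm671 by 77 bases, Krt8 with Gm36026 by 101, Cldn3 with Wbscr25 by 40 and Tjp3 with Apba3 by 40. Whether counting used the strand is not given in the sources used here, so reads of such a pair cannot be told apart over those bases.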

How the data were processed

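RNA was measured after poly-A selection by paired-end sequencing, per the labels' protocols. The deposited values are a normalized signal: whole read counts divided by a size factor per library. The submitters' processing notes name featureCounts, DESeq2 and the genome build GRCm39. The aligner, tool versions, annotation and strand setting are not given in the sources used here. Whole reads were recovered for 100% of values within 0.01 read in each library. Symbols came from GENCODE M21 and RefSeq tables for 29982 of 30399 genes, and lengths and copies from GENCODE M21 (GRCm38), with blastn 2.17.0 (at least 90% identity over 500 bases).

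Log2(value + 1) was tested with limma 3.58.1 (trend) in R 4.3.3 over 23674 genes whose mean value reached 1, with Benjamini-Hochberg adjustment and a threshold of 0.05. Fold changes are on that scale, which understates changes of low genes. A quasi-likelihood count test had been foreseen for raw counts. Since the table is normalized, edgeR 4.0.16 and DESeq2 1.42.0 were run as alternatives on recovered reads of 11 samples, without tumor 3. Its values also came out whole, but 1 read there is worth 0.991 normalized counts, and a separate check of the recovery did not accept a step so near 1. Fits on all 12 samples were added after seeing the data. edgeR called 6384 genes higher and 4821 lower of 18308. Ratios used exact permutation tests. Named from each list were the 2 largest increases and 2 largest decreases among called genes with a mean log2 of at least 4, beside all 10 genes and the reference genes Cdh1, Vim, Tjp1, Ocln, Cldn18 and Cldn5. Likeness names the 3 nearest profiles, of which some are given. Some genes these rules name are not reported here. The genes and lists were chosen with earlier results of these data known. The limma test was tried on simulated counts of independent samples. Alternatives covered the pseudocount, filter, scaling, shared title numbers, trachea-titled tumors, Y-linked level, tools and leaving out each sample.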

Additional observations from a re-analysis of the deposited data

Results flagged for a closer look

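A sample far from the rest of its group was looked for in 32 groups of values, the 10 genes and 6 ratios in normal lung and in tumor. There were 5 such samples, and chance gives about 1.6, or about 1 in 20 groups. In tumors, tumor 1 stood apart above the other 6 for Krt8, at a log2(value + 1) of 10.86, for Epcam at 12.45, for Cldn6 at 8.15 and for Cldn7 at 10.04. In normal lung, normal lung 1 stood apart below the other 4 for Cldn6, at 1.195, which rests on 1 read.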

How the results depend on the processing

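Of 258 recomputed fold changes of the 10 genes, 214 kept their direction and side of the threshold, 20 no longer passed, 3 newly passed and 21 reversed. Where DESeq2 gave no adjusted p only the direction was compared, so Krt8, Cldn3 and Cldn7 there are counted as kept. The count of lower genes, 7, was 3 with the covariate of Y-linked genes, 3 in edgeR (4 with tumor 3 included) and 2 in DESeq2 (7 with it), where without tumor 3 only 5 of the 10 had an adjusted p. It was 6 to 8 with each sample left out. The Y-linked level is high in 4 of 5 normal lungs and in tumor 1 only, so its effect and that of the group can hardly be told apart. Krt19 and Cldn3 kept their calls in all limma and edgeR settings, and Cldn3 had no adjusted p in DESeq2 without tumor 3. In edgeR without tumor 3 the log2 fold change was -0.82 for Krt7, -1.21 for Krt8, -1.27 for Krt18 and -2.10 for Cldn7, none called. The cause was not tested.

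Reversed were Epcam, at 0.67 with the Y-linked covariate, 0.40 in edgeR (0.22 with tumor 3) and 0.32 in DESeq2, and Tjp3, at 0.30, 0.13 and 0.061 in those and 0.081 with same-numbered tumors averaged. Cldn6 reversed to 0.13 with equal totals, 0.55 with tumors averaged, 0.18 with tumors correlated, 1.81 with the covariate and 2.80 in DESeq2, and ran from -0.92 to 0.27 with each sample left out. None of these passed the threshold, and Epcam and Cldn6 had no adjusted p in DESeq2 without tumor 3. Equal totals moved the median of all genes by 0.19, edgeR by 0.10 and DESeq2 by 0.14 (without tumor 3). Relative to that median Cldn6 was -0.09 with equal totals.

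With same-numbered tumors averaged, Krt7 to Krt8 was 1.24 (exact permutation, adjusted p = 0.143) and Krt19 to Krt18 was -2.95 (0.0952, the smallest that 126 splits and 6 ratios allow). With each sample left out, Krt7 to Krt8 ran from 1.14 to 1.71 and Krt8 to Krt18 from -1.75 to -1.05. Other claudins called lower were 5 of 16 with the covariate, 5 of 12 in edgeR and 5 of 14 in DESeq2. The main fit had 9 of 16. Over all genes 24.3%, 26.3% and 24.7% were lower in these fits, in place of 30.1%. Other keratins called higher were 0 of 7 in edgeR, 2 of 17 in DESeq2 and 2 of 15 without tumor 2. The main fit had 1 of 15. Over all genes 34.9%, 30.6% and 31.8% were higher there, in place of 31.4%. The epithelial programme had 15 lower of 17 tested in DESeq2, 19 of 29 with the covariate and 20 of 29 in edgeR, in place of 27 of 29, and 1 higher with the covariate. Summing Krt8 with Nlrp4e and Krt18 with Gm5200 was chosen after seeing the data and changed no call. No paired analysis was possible because no number links a normal lung to a tumor.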
